A study of Drosophila melanogaster with 22 samples.

Results

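Chemoreceptor genes encode the receptors with which the fly's sensory neurons detect odours, tastes, humidity and temperature. The list held the protein-coding genes of the chromosome arms 2L, 2R, 3L, 3R and X whose symbol is Or, Gr or Ir followed by digits and a lower-case letter, by RefSeq's gene table for dm6 (Release 6). It held 179 genes (59 odorant receptor genes, Or; 60 gustatory receptor genes, Gr; 60 ionotropic receptor genes, Ir) of the 13842 protein-coding genes of these arms. Their chromatin was described from bulk ATAC-seq peak lists of 22 libraries of isolated adult Drosophila melanogaster hearts. ATAC-seq marks DNA that a transposase can enter, and a peak is a stretch where such cuts pile up above the local background. The lists say which DNA was open, not which genes were transcribed.

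The libraries fall into 6 groups by their labels. Hearts of the white-eyed laboratory strain w1118 were taken at 5 weeks (3 libraries) and at 1 week (3 libraries). Hearts with Hand-Gal4 and RNAi against LamC (4 libraries) were compared with Hand-Gal4 hearts of the attp2 background (4 libraries), and hearts with Hand-Gal4 and RNAi against LamB (5 libraries) with Hand-Gal4 hearts of the attp40 background (3 libraries), all at 1 week. Both RNAi groups and both of their controls thus carry the Hand-Gal4 driver, per the series' design text, and the w1118 groups do not. The labels name 4 LamC and 5 LamB RNAi libraries, all used here, and the design text mentions 3 and 4. Hand-Gal4 acts in heart cells, so other cells of the dissected tissue would not carry the knockdown. LamC is the A-type and LamB, gene symbol Lam, the B-type lamin of flies, filament proteins under the inner nuclear membrane. The study asked which regions change both with age and after loss of a lamin. Whether libraries of the same group were made from different batches of hearts is not stated, so a p-value reflects only how far these libraries scatter, and that scatter may be technical. Nor is the flies' sex stated in the labels.

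Each adult olfactory neuron typically uses a tuning receptor of the Or family together with the co-receptor Orco, or Ir tuning receptors together with the co-receptors Ir8a, Ir25a or Ir76b. Gr genes serve mostly taste neurons, for sugars or bitter compounds, and the pair Gr21a and Gr63a detects carbon dioxide. In tissues without sensory neurons such genes are usually silent, and in fly cells many silent, tissue-specific genes lie in chromatin that touches the lamina.

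The deposited lists held 8491 to 12395 peaks per library, and the sequencing depth behind them is unknown. Of the 14 heart and muscle markers of the list used, 11 had a peak within 500 bp in all 22 libraries, among them Hand, Mef2, pnr, Mhc and sls, while tin, a defining heart factor, had none in any library. Of the 8 neuron markers, elav, brp and Syn had a peak in all 22 libraries and all 8 in at least 1, and the part of nerve cells in the values below was not tested. Of the markers of other cell types, 3 of 5 pericardial nephrocyte, 2 of 5 hemocyte and 1 of 3 fat body markers had a peak in all 22 libraries. The hemocyte marker He and the fat body markers Fbp1 and Fbp2 had no peak. Over all protein-coding genes of the arms 47.0% had a peak in all 22 libraries, so these counts do not show which cell types were present. In bulk tissue, fewer cells of a type and less open DNA per cell cannot be told apart.

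Most chemoreceptor genes had no peak. In all 22 libraries together, 149 of the 179 genes (83.2%) had no deposited peak within 500 bp of the gene, and 30 (16.8%) had a peak in at least 1 library. Genes with such a peak are called open here, and the others closed. Over all protein-coding genes of the same arms 67.3% had a peak in at least 1 library. Only 7 chemoreceptor genes (3.91%) had a peak in all 22 libraries, against 47.0% of all genes, and the median gene had a peak in 0 libraries for the list and in 21 over all genes. Chemoreceptor genes are short, with a median span of 1691 bp, and short genes have peaks less often. Of the 6515 genes with a span of up to 2 kb, 51.5% had a peak in at least 1 library, against 81.4% of longer genes, while of the 127 chemoreceptor genes of that size 20 (15.7%) did. These shares are descriptions of the list, with no test of it as a whole.

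Few genes of each family had a peak. At least 1 library had a peak at 8 of 59 Or genes (13.6%), 10 of 60 Gr genes (16.7%) and 12 of 60 Ir genes (20%). The 7 genes open in all 22 libraries were 1 Or gene (Or46a), 2 Gr genes (Gr97a and Gr98d) and 4 Ir genes (Ir25a, Ir31a, Ir60b and Ir60e). By chromosome arm, open genes numbered 6 of 31 on 2L, 8 of 46 on 2R, 8 of 35 on 3L, 7 of 42 on 3R and 1 of 25 on X, where Ir8a was the open gene. Over all genes the arms ranged from 63.4% on 2L to 69.0% on X. Or10a and Gr10a have the same span in the annotation, as do Gr64b and Gr64c, so the genes of each pair cannot be told apart. None of these genes had a peak.

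Other gene families placed these shares. Odorant-binding protein genes (Obp), whose products carry odorants in the fluid around sensory neurons, had a peak in at least 1 library at 15 of 51 genes (29.4%). Cuticle protein genes (Cpr), which are used in the epidermis, had one at 15 of 66 (22.7%). Cytosolic ribosomal protein genes, active in every cell, had one at 82 of 87 (94.3%), with a median span of 1318 bp, shorter than that of the chemoreceptor genes.

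**Figure D1:**
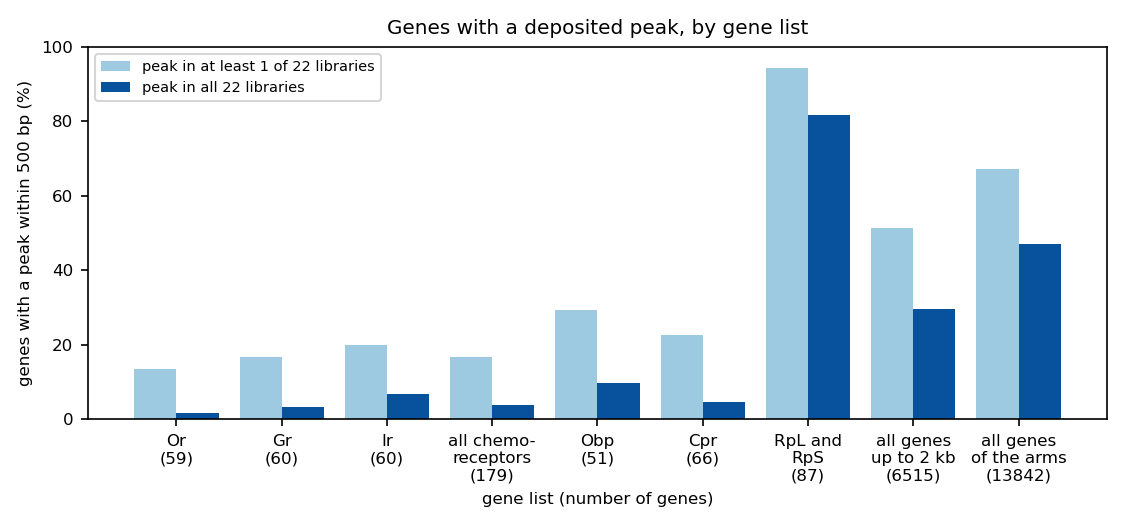
Share of genes with a deposited peak within 500 bp (percent, y axis) in each gene list (x axis, number of genes in brackets). Light bars give genes with a peak in at least 1 of 22 libraries and dark bars genes with a peak in all 22; chemoreceptor genes stand at 16.8% and 3.91%, all genes of the arms at 67.3% and 47.0%.

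By function, most sugar, bitter, antennal odour and pheromone receptor genes were closed. Of the 9 sugar receptor genes, 7 had no peak in any library, including Gr5a, Gr43a and Gr64f, while Gr64a had one in 10 libraries and Gr61a in 2. Of the 5 broadly expressed bitter receptor genes, Gr33a, Gr39a, Gr66a and Gr89a had none and Gr32a had one in 7 libraries. The carbon dioxide receptor gene Gr63a had a peak in 17 libraries and its partner Gr21a in 0. Gr28a had one in 14 libraries and Gr28b, a gene also known from light and heat sensing, in 0. Of the 4 temperature and humidity receptor genes, Ir40a and Ir93a had none, Ir21a, a cool sensor, had a peak in 9 libraries and Ir68a, a moist-air sensor, in 4. Of the 10 antennal odour Ir genes, 8 had none, Ir31a had a peak in 22 libraries and Ir76a in 4. Of the 4 pheromone-related Or genes, Or47b, Or65a and Or67d had none and Or88a had a peak in 1 library.

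The co-receptor genes were split. Orco, the partner of all Or receptors and no member of the list by its symbol, had no peak within 500 bp in any library. Neither did Ir76b. Ir25a had a peak in 22 libraries and Ir8a in 21. Among the other 16 genes of the olfactory and taste pathway that were looked up, receptors' helpers such as Snmp1 and Os-C and the neuronal regulators acj6, ato and amos had none, while the factor genes pdm3 and lz and the binding protein gene lush had a peak in all 22 libraries. The taste channel gene ppk29 had one in 7 libraries and Snmp2 in 2.

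Many closed genes were far from any peak. The distance from a closed chemoreceptor gene to the nearest peak of any library had a median of 5790 bp, against 4555 bp for all 4524 genes without a peak within 500 bp. The longest was 68161 bp, at Ir41a, an antennal odour receptor gene. Of all 179 genes, 44.7% lay more than 5 kb from any peak and 13.97% more than 20 kb, against 15.6% and 5.08% of all genes of the arms. The clusters Gr36a, Gr36b and Gr36c (61830 to 65541 bp from the nearest peak) and Gr22a to Gr22d (36714 to 41241 bp) were the most remote of the clusters of 3 or more genes. Windows of 500 bp around the genes merge the 179 into 134 separate loci, of which 25 hold several genes and 30 had a peak. Each open gene was thus alone in its locus in having a peak, for instance Gr64a of the 6 Gr64 genes and Gr98d beside Gr98b and Gr98c.

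Where a peak lay near a chemoreceptor gene, it lay mostly at the end of another gene. The 22 lists held 466 peaks within 500 bp of a chemoreceptor gene. Of these, 377 (80.9%) also lay within 500 bp of an end of a protein-coding gene outside the list, against 55.2% of all peaks of the arms. The shares differ in kind, since the second takes in peaks far from any gene and peaks at the end of their own gene. The summit, the highest point of a peak, was inside the chemoreceptor gene in 5 of the 466 (1.07%), outside it by 1 to 500 bp in 348 and by more in 113. For genes with a span of up to 2 kb the summit was inside the gene in 19.2% of such peaks, and for chemoreceptor genes of that size in 0 of 310. For Cpr genes it was inside in 48.1%, for Obp genes in 21.2% and for all genes in 50.5%. A peak overlapped the gene itself at 10 of the 179 genes (5.59%), against 60.3% of all genes. Among genes of up to 2 kb it did so at 5 of the 127 chemoreceptor genes (3.94%), against 42.9% of all genes of that size.

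**Figure D2:**
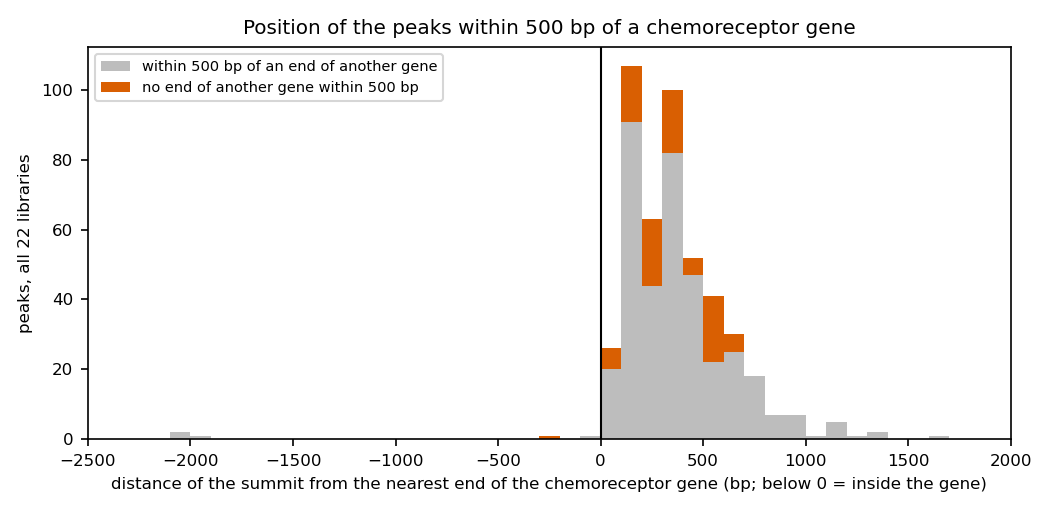
Number of peaks (y axis, all 22 libraries) by the distance of their summit from the nearest end of the chemoreceptor gene (x axis, bp, inside the gene below 0). Grey marks the 377 peaks within 500 bp of an end of another protein-coding gene and orange the other 89; 5 of 466 summits lie inside.

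At 21 of the 30 open genes every peak was within 500 bp of such an end. The nearest gene outside the list was 160.5 bp away at the median of the 30 open genes and 1939 bp away at the median of the 149 closed ones. Among the 94 chemoreceptor genes with no protein-coding gene outside the list within 1 kb, 4 had a peak (4.26%). Of the 46 with such a neighbour within 1 kb 17 had one (37.0%), and of the 39 that overlap a gene outside the list 9 did (23.1%). Other chemoreceptor genes were not counted as neighbours here. The annotation table gives no strand, so starts and stops of genes are not told apart and these peaks cannot be assigned to 1 of the genes they lie between.

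The chemoreceptor genes given library by library are the 7 with a peak in 22 libraries, Gr97a, Or46a, Ir60b, Ir60e, Ir25a, Ir31a and Gr98d, and Ir68b, which had the highest mean score of the 4 genes with a peak in 21. Their values are given as a rank score, computed from the 8491 strongest peaks of each library. The score is 1 for a gene whose strongest peak within 500 bp leads the list of that library, falls with its rank, and is 0 where no listed peak lies there. All values of a group follow the replicate numbers, and coordinates are those of dm6.

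Gr97a (3R, 26965124 to 26966485), a gustatory receptor gene, lies between Tsp97E, a tetraspanin gene, and CG5521, and had peaks at the ends of both, the strongest at CG5521. Gr97a scored 0.708, 0.867 and 0.701 in w1118 hearts at 5 weeks, against 0.662, 0.871 and 0.798 at 1 week. After LamC RNAi, Gr97a scored 0.706, 0.748, 0.85 and 0.891, against 0.916, 0.666, 0.684 and 0.828 in attp2 hearts. After LamB RNAi, Gr97a scored 0.86, 0.858, 0.717, 0.61 and 0.876, against 0.848, 0.875 and 0.885 in attp40 hearts. The groups overlapped in each comparison, and no library lacked the peak.

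Or46a (2R, 10139264 to 10142074), an odorant receptor gene of the maxillary palp, had its peak 157 bp beyond the gene at the nearest, at the end of CG18011. Or46a scored 0.902, 0.813 and 0.766 in w1118 hearts at 5 weeks, against 0.828, 0.716 and 0.727 at 1 week. After LamC RNAi, Or46a scored 0.843, 0.813, 0.779 and 0.884, against 0.74, 0.859, 0.822 and 0.75 in attp2 hearts. After LamB RNAi, Or46a scored 0.754, 0.806, 0.666, 0.818 and 0.855, against 0.731, 0.761 and 0.652 in attp40 hearts. No library lacked the peak, and the groups overlapped in each comparison.

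Ir60b (2R, 24515685 to 24517458), a taste receptor of a pharyngeal neuron, shares its peak with the end of Letm1, a mitochondrial gene. Ir60b scored 0.828, 0.752 and 0.818 in w1118 hearts at 5 weeks, against 0.805, 0.815 and 0.798 at 1 week. After LamC RNAi, Ir60b scored 0.848, 0.849, 0.799 and 0.802, against 0.748, 0.799, 0.756 and 0.7 in attp2 hearts. After LamB RNAi, Ir60b scored 0.777, 0.826, 0.621, 0.592 and 0.761, against 0.78, 0.824 and 0.617 in attp40 hearts. All 4 LamC RNAi libraries scored above the 4 attp2 libraries, the closest pair by less than the digits given, and the groups of the other comparisons overlapped.

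Ir60e (2R, 24529554 to 24531272), an ionotropic receptor gene that overlaps the DNA repair gene Brca2, had its peak 209 bp beyond the gene, at the ends of CG13585 and CG4622. Ir60e scored 0.556, 0.686 and 0.65 in w1118 hearts at 5 weeks, against 0.759, 0.57 and 0.778 at 1 week. After LamC RNAi, Ir60e scored 0.666, 0.561, 0.687 and 0.492, against 0.619, 0.584, 0.486 and 0.692 in attp2 hearts. After LamB RNAi, Ir60e scored 0.718, 0.619, 0.626, 0.683 and 0.655, against 0.78, 0.615 and 0.764 in attp40 hearts. Here the groups of each comparison overlapped.

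Ir25a (2L, 4830846 to 4835300), the broadest co-receptor of the family, had a peak at each end, shared with Fnta, a farnesyltransferase subunit gene, and with tank. Ir25a scored 0.661, 0.358 and 0.538 in w1118 hearts at 5 weeks, against 0.483, 0.482 and 0.597 at 1 week. After LamC RNAi, Ir25a scored 0.339, 0.427, 0.403 and 0.613, against 0.58, 0.261, 0.489 and 0.481 in attp2 hearts. After LamB RNAi, Ir25a scored 0.279, 0.462, 0.141, 0.179 and 0.583, against 0.532, 0.579 and 0.377 in attp40 hearts. The lowest scores were those of LamB RNAi replicates 3 and 4, and the groups overlapped in each comparison. At the end shared with tank alone (2L, 4835196 to 4836255) the scores were 0.387, 0.358 and 0.33 at 5 weeks, against 0.229, 0.13 and 0.252 at 1 week, with no overlap, and a difference of 0.155 ± 0.0797 (limma SE, adjusted p = 0.479).

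Ir31a (2L, 10405565 to 10408197), an antennal odour receptor gene, had its peak 12 bp beyond the gene, at the ends of RpS27A, a ribosomal protein gene, and Ip259. Ir31a scored 0.475, 0.357 and 0.402 in w1118 hearts at 5 weeks, against 0.33, 0.446 and 0.305 at 1 week. After LamC RNAi, Ir31a scored 0.346, 0.275, 0.175 and 0.469, against 0.518, 0.255, 0.308 and 0.235 in attp2 hearts. After LamB RNAi, Ir31a scored 0.158, 0.244, 0.069, 0.258 and 0.334, against 0.24, 0.325 and 0.335 in attp40 hearts. LamB RNAi replicate 3 was the lowest library, and the groups overlapped in each comparison.

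Gr98d (3R, 27546052 to 27547462), a gustatory receptor gene, shares its peak with the end of the kinesin gene Klp98A. Gr98d scored 0.303, 0.162 and 0.288 in w1118 hearts at 5 weeks, against 0.321, 0.4 and 0.453 at 1 week. After LamC RNAi, Gr98d scored 0.478, 0.415, 0.324 and 0.326, against 0.181, 0.277, 0.125 and 0.347 in attp2 hearts. After LamB RNAi, Gr98d scored 0.285, 0.0904, 0, 0.174 and 0.295, against 0.459, 0.258 and 0.301 in attp40 hearts. The 3 old libraries were all below the 3 young ones, and the groups of the other comparisons overlapped. LamB RNAi replicate 3, at 0, had a peak in its deposited list that was not among the 8491 strongest.

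Ir68b (3L, 12125487 to 12127394) had its peak 181 bp away, at the end of yps, a Y-box RNA-binding protein gene. Ir68b scored 0.598, 0.577 and 0.391 in w1118 hearts at 5 weeks, against 0.493, 0.56 and 0.895 at 1 week. After LamC RNAi, Ir68b scored 0.721, 0.606, 0 and 0.823, against 0.577, 0.539, 0.584 and 0.886 in attp2 hearts. After LamB RNAi, Ir68b scored 0.521, 0.636, 0.454, 0.487 and 0.813, against 0.588, 0.901 and 0.616 in attp40 hearts. In LamC RNAi replicate 3 no peak came within 500 bp of Ir68b, although the merged region at yps (3L, 12123913 to 12125306) held a peak in all 22 libraries, with scores of 0.777 to 0.943. The groups overlapped in each comparison.

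**Figure D3:**
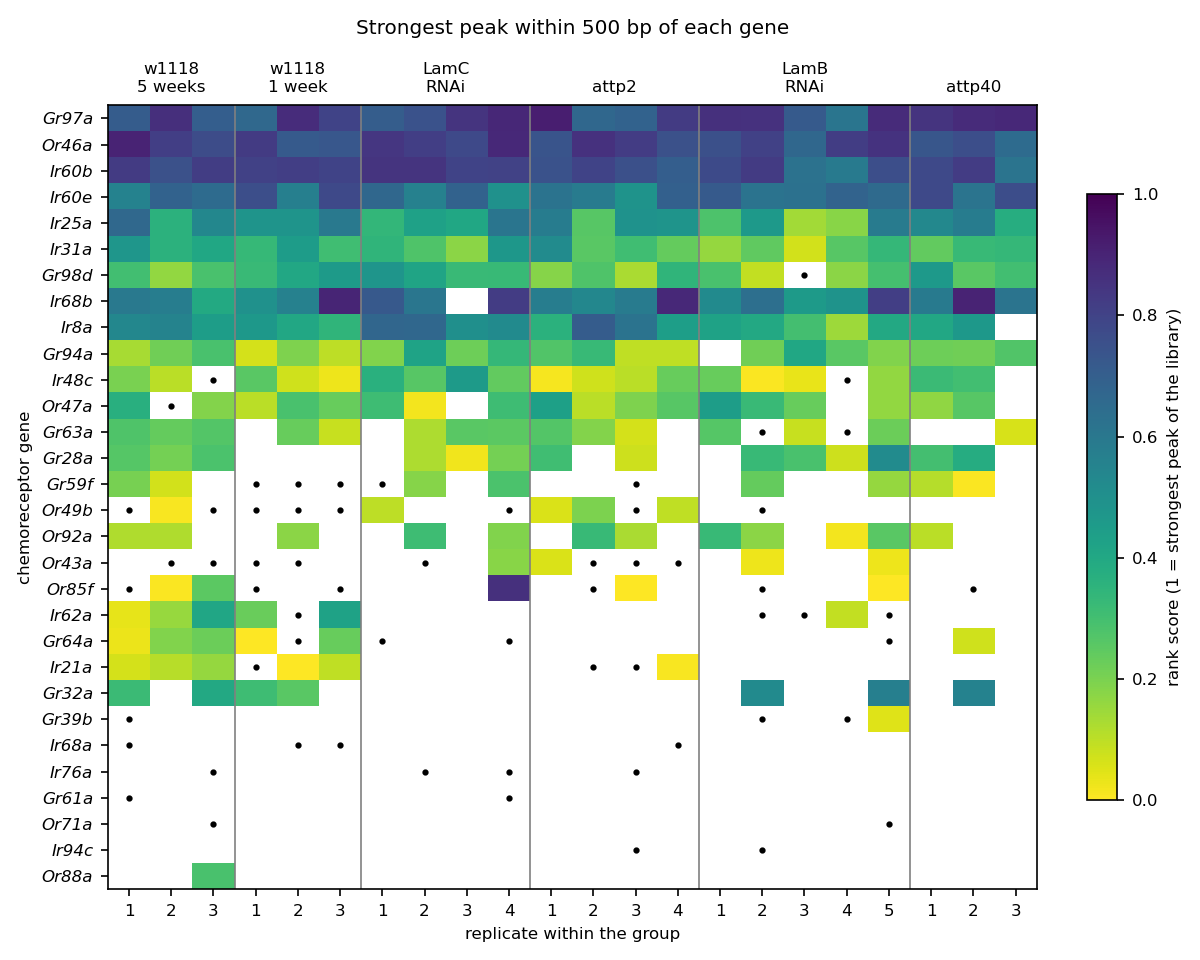
Rank score (colour) of the strongest peak within 500 bp of each of the 30 chemoreceptor genes with a peak (rows, ordered by the number of libraries with a peak) in the 22 libraries (columns, by group and replicate). White cells have no peak among the 8491 strongest of the library, and black dots mark a peak that is in the deposited list only; the top 7 rows have a deposited peak in every library.

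Ir8a (X, 9232726 to 9236585), the co-receptor of acid-sensing receptors, had a peak in 21 libraries, 207 bp away at the end of CG12121, and none in attp40 replicate 3, the library with the shortest list. Gr94a overlaps p53, the tumour suppressor gene, and had a peak in 21 libraries, Ir48c in 21, Or47a, beside the cuticle gene Cpr47Ea, in 19, and Gr59f and Or49b in 13 each. Genes with a peak in 2 to 12 libraries were Or92a and Or43a (12 each), Or85f (11), Ir62a and Gr64a (10 each), Ir21a (9), Gr32a (7), Gr39b, Ir68a and Ir76a (4 each), and Gr61a, Or71a and Ir94c (2 each). Over all 30 open chemoreceptor genes the median score of a present peak was 0.288 to 0.418 in the 6 groups, against 0.624 to 0.638 for all genes. Rarely open genes could still score high, as Gr32a did with 0.255 to 0.568 in its 7 libraries and Or85f with 0.863 in LamC RNAi replicate 4. These peaks lay at ends of other genes, Idua for Gr32a and CG34117, RpL34b and CG8132 for Or85f. The merged regions there held a peak in all 22 libraries, with mean scores of 0.395 and 0.811. Only in some libraries did such a peak come within 500 bp of the receptor gene.

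In 6 open genes no peak lay within 500 bp of an end of another protein-coding gene, nor of an annotated non-coding gene. At Or43a, a receptor for benzaldehyde-like odours, the nearest gene outside the list was Adk3, 8111 bp away. The peak there (2R, 7232613 to 7232870) overlapped the end of Or43a and was in 12 deposited lists, at a median fold enrichment of 3.27 over local background as the authors' peak caller gave it, while the median of all deposited peaks was 5.27. It reached the 8491 strongest peaks in 4 libraries only, with scores of 0.178 in LamC RNAi replicate 4, 0.0562 in attp2 replicate 1, and 0.0267 and 0.0243 in LamB RNAi replicates 2 and 5. At Or92a, a vinegar odour receptor gene, the peak (3R, 20506483 to 20506648) lay 297 bp beyond the gene and was in 12 libraries, with a highest score of 0.327 in attp2 replicate 2. Ir68a had such a peak in 4 libraries and Or71a, which overlaps Plp, in 2, none of them among the 8491 strongest of a list.

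Ir48c and Ir62a overlap other genes. Ir48c overlaps ths, a fibroblast growth factor gene of mesoderm and heart development, and its peak (2R, 11789940 to 11790253) was 447 bp from the receptor gene within ths. Ir62a overlaps Iml1, a regulator of TOR signalling, and its peak (3L, 1528951 to 1529465) reached into the receptor gene in 1 library. Ir62a had a deposited peak in 3 of 3 w1118 libraries at 5 weeks and 3 of 3 at 1 week, in 0 of 4 after LamC RNAi and 0 of 4 attp2 libraries, and in 4 of 5 after LamB RNAi and 0 of 3 attp40 libraries. Scores at 5 weeks were 0.0372, 0.155 and 0.407, against 0.229, 0 and 0.424 at 1 week, and 1 LamB RNAi library, replicate 4, reached a score above 0, of 0.0903.

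With age, the share of chemoreceptor genes with a deposited peak was 13.2 ± 0.853% at 5 weeks and 11.5 ± 0.645% at 1 week in w1118 hearts (SD, n = 3 each), or 22 to 25 genes at 5 weeks and 20 to 22 at 1 week. Over all genes of the arms the shares were 61.9 ± 0.789% at 5 weeks and 60.6 ± 0.807% at 1 week. The deposited lists differ in length, so the count was repeated with equal-length lists. Then 19 to 20 genes had a peak at 5 weeks (11.0 ± 0.323%) and 15 to 16 at 1 week (8.75 ± 0.323%), with no overlap between the ages and no test of the list, while the shares over all genes were 57.3 ± 1.33% at 5 weeks and 56.3 ± 0.735% at 1 week, with overlap. By equal-length lists, more old than young libraries had a peak at 10 of the 179 genes (5.59%, against 5.73% of all genes), and fewer old than young ones at 2 (1.12%, against 3.60% of all genes). The difference between the ages, 1.68 percentage points with deposited lists, was 0.372 points with a window of 1000 bp and 2.61 points with peaks of a -log10 q of at least 10.

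After LamC RNAi 9.36 ± 2.39% of chemoreceptor genes had a deposited peak (12 to 22 genes) and in attp2 hearts 10.1 ± 1.58% (16 to 22 genes; SD, n = 4 each), which overlapped. After LamB RNAi the share was 10.1 ± 2.62% (13 to 23 genes, n = 5) and in attp40 hearts 7.82 ± 2.01% (10 to 17 genes, n = 3), which overlapped too. With equal-length lists the shares were 8.24 ± 1.54% after LamC RNAi and 8.52 ± 0.535% in attp2 hearts, and 8.49 ± 1.78% after LamB RNAi and 7.64 ± 1.80% in attp40 hearts. The groups of neither lamin comparison separated in the share of chemoreceptor genes with a peak, in either kind of list.

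Among genes with a peak in some libraries, the heat map of scores shows both even and uneven spreads over the groups, which were not tested. Or92a had a deposited peak in 2 of 3 old and 1 of 3 young w1118 libraries, in 2 of 4 after LamC RNAi and 2 of 4 attp2 libraries, and in 4 of 5 after LamB RNAi and 1 of 3 attp40 libraries. Gr64a, the sugar receptor gene at the end of CG11594, had a deposited peak in 3 of 3 old and 3 of 3 young w1118 libraries, in 2 of 4 after LamC RNAi and 0 of 4 attp2 libraries, and in 1 of 5 after LamB RNAi and 1 of 3 attp40 libraries. Ir21a had one in 3 of 3 old and 3 of 3 young libraries, in 0 of 4 after LamC RNAi and 3 of 4 attp2 libraries, and in no library of the LamB comparison. Or49b had one in 3 of 3 old and 3 of 3 young libraries, in 2 of 4 after LamC RNAi and 4 of 4 attp2 libraries, and in 1 of 5 after LamB RNAi and 0 of 3 attp40 libraries. Gr63a had one in 3 of 3 old and 2 of 3 young libraries, in 3 of 4 after LamC RNAi and 3 of 4 attp2 libraries, and in 5 of 5 after LamB RNAi and 1 of 3 attp40 libraries. The w1118 lists held 10637 to 12395 peaks and those of the Hand-Gal4 groups 8491 to 11602, and the part of list length in these counts was not tested.

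By family, 5 to 7 Or genes had a deposited peak in a library at 5 weeks and 4 to 5 at 1 week, 7 to 10 Gr genes at 5 weeks and 6 to 7 at 1 week, and a mean of 9.67 ± 0.577 Ir genes at each age (SD, n = 3 each). After LamC RNAi 3.5 ± 2.08 Or genes had one and in attp2 hearts 5.00 ± 1.15, Gr genes numbered 6 ± 1.41 after LamC RNAi and 4.5 ± 1.29 in attp2 hearts, and Ir genes numbered 7.25 ± 0.957 after LamC RNAi and 8.50 ± 1.29 in attp2 hearts (SD, n = 4 each). After LamB RNAi the means were 3.80 ± 2.05 Or, 6.20 ± 2.39 Gr and 8.00 ± 0.707 Ir genes (n = 5), and in attp40 hearts 2.33 ± 1.15, 5.33 ± 1.53 and 6.33 ± 1.15 (n = 3).

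**Figure D4:**
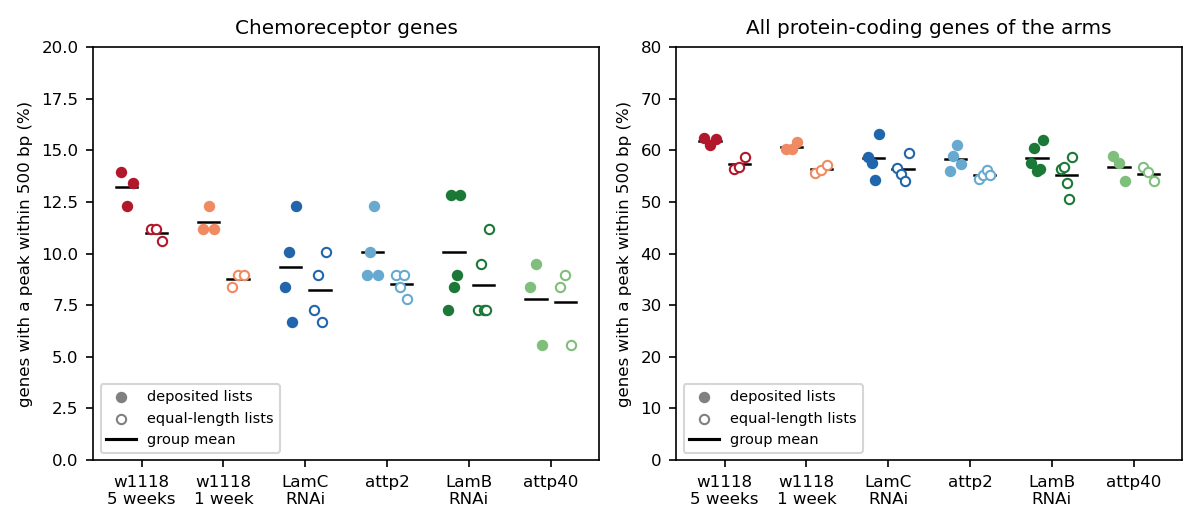
Percent of genes with a peak within 500 bp (y axis) in each library (points), by group (x axis), for the 179 chemoreceptor genes (left) and all protein-coding genes of the arms (right, with another scale). Filled points use the deposited lists, open points the equal-length lists, and lines are group means; for chemoreceptor genes the open points of w1118 at 5 weeks (10.6% to 11.2%) lie above those at 1 week (8.38% to 8.94%).

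For a test at single sites, the reduced lists of all libraries were merged into 9850 regions with a peak in at least 3 libraries, and limma was fitted to their scores over all 22 libraries, with Benjamini-Hochberg adjustment over all 9850 regions. A total of 28 regions lay within 500 bp of a chemoreceptor gene, at 24 of the 179 genes. Of these regions, 23 lay at an end of a gene outside the list (82.1%, against 58.7% of all regions), 10 overlapped the chemoreceptor gene and 12 (42.9%, against 53.3%) had a peak in all 22 libraries. Their median mean score was 0.220, against 0.378 for all regions. As with the peaks, the shares of regions at a gene end differ in kind. A merged region can reach the 500 bp window through a few wide peaks, as at Or85f and Or88a, whose regions held a peak in all 22 libraries.

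No chemoreceptor region passed the threshold with age. By limma 0 of 28 had an adjusted p under 0.05 (lowest 0.209), where 1.32% of all regions did. At an unadjusted p under 0.05 there were 3 of 28 (10.7%), where 11.6% of all regions were. Score differences had a median of 0.0122 and ran from -0.199 to 0.171. They were above 0 at 15 regions and below 0 at the others, except at Or43a, where every w1118 library scored 0. Their median size was 0.0450, against 0.0485 for all regions. The groups did not overlap in 3 of 28 regions, at Ir25a, Gr28a and Gr98d, where 14.9% of all regions did not.

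The 3 lowest p-values with age were at Gr63a, Ir21a and Gr28a. The Gr63a region (3L, 3896608 to 3897060), at the ends of Lamtor4 and Ccz1, scored 0.275, 0.237 and 0 at 5 weeks, against 0 in each of the 3 libraries at 1 week, a difference of 0.171 ± 0.0594 (limma SE, adjusted p = 0.209). Without replicate 3 at 5 weeks, the library at 0, the difference was 0.256 with a limma adjusted p of 0.0233, so 1 library decides that call. Over the 8 fits of the same regions with other libraries or a replicate block, the adjusted p ran from 0.0233 to 0.521. The Ir21a region (2L, 21434 to 21867), at the end of l(2)gl, a cell polarity gene, and of an annotated antisense RNA, scored 0.0629, 0.106 and 0.157 at 5 weeks, against 0, 0.000589 and 0.0949 at 1 week, a difference of 0.0765 ± 0.0274 (adjusted p = 0.228). Outside w1118 it scored above 0 in attp2 replicate 4 alone, at 0.00966.

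Gr28a was the 1 chemoreceptor gene with a deposited peak in every library of one age and none of the other, at 3 of 3 libraries at 5 weeks and 0 of 3 at 1 week, where 0.311% of all genes were so in this direction. In the opposite direction 0 of 179 were, where 0.108% of all genes were. Its locus (2L, 7450848 to 7452377) runs from the end of santa-maria, a scavenger receptor gene, towards Gr28a at 7452520, and held separate peaks. In old replicates 1 and 2 a peak had its summit 210 and 177 bp from Gr28a, while in old replicate 3 a single wide peak reached to within 150 bp but had its summit 1313 bp away, at santa-maria. No young library had a peak closer than 592 bp. Libraries with a near peak numbered 3 of 4 after LamC RNAi and 2 of 4 in attp2, and 4 of 5 after LamB RNAi and 2 of 3 in attp40, so it was not limited to old hearts. These counts take in single wide peaks in LamB RNAi replicate 5 and attp40 replicate 2, with summits 1313 and 1252 bp from Gr28a. The merged region as a whole scored 0.263, 0.26 and 0.283 at 5 weeks, against 0.532, 0.426 and 0.445 at 1 week, a difference of -0.199 ± 0.0873 (limma adjusted p = 0.356). The score of the region and the presence of the near peak thus ran in opposite directions.

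After LamC RNAi no chemoreceptor region passed either. By limma 0 of 28 had an adjusted p under 0.05 (lowest 0.472), where 0.152% of all regions did, and 2 of 28 (7.14%) had an unadjusted p under 0.05, where 6.59% of all regions did. Differences from attp2 had a median of 0.0185, from -0.106 to 0.225, with 18 regions above 0 and 8 below, and a median size of 0.0385, against 0.0380 for all regions. The Ir48c region within ths scored 0.365, 0.258, 0.456 and 0.242 after LamC RNAi, against 0.0131, 0.0723, 0.104 and 0.233 in attp2 hearts, a difference of 0.225 ± 0.0782 (limma SE, adjusted p = 0.472). These groups did not overlap, nor did those at Ir60b, 2 of 28 regions, where 3.09% of all regions did not overlap.

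A second region at Gr94a (3R, 23051198 to 23051678) lay 11 bp from the gene and inside p53. It had a peak in LamC RNAi replicates 2 and 3, at 0.418 and 0.221, and scored 0 in the other 2 and in the 4 attp2 libraries. The difference was 0.160 ± 0.0583 (limma adjusted p = 0.565), and 0.0738 without LamC RNAi replicate 2. This region also had a peak in 3 of 3 w1118 libraries at 5 weeks (mean score 0.0521) and in 1 of 3 at 1 week (0.0231). The Or49b region (2R, 12842426 to 12842718), at the end of the cytochrome P450 gene Cyp9h1, scored 0.0998, 0, 0 and 0 after LamC RNAi, against 0.0556, 0.198, 0 and 0.0972 in attp2 hearts, a difference of -0.0626 ± 0.0313 (limma adjusted p = 0.774) that was -0.0260 without attp2 replicate 2. No chemoreceptor gene had a peak in every library of one of these groups and in none of the other, in either direction, where 0.0433% of all genes had one only after LamC RNAi and 0% only in attp2.

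After LamB RNAi, 0 of 28 chemoreceptor regions passed by limma (lowest adjusted p = 0.752), where 0.183% of all regions did, and 1 of 28 (3.57%) had an unadjusted p under 0.05, where 6.4% of all regions did. Differences from attp40 had a median of -0.00160, from -0.176 to 0.143, with 11 regions above 0 and 14 below, and a median size of 0.0409, against 0.0383 for all regions. The lowest p was at Gr98d, whose library values are given above, with a difference of -0.170 ± 0.0790 (limma SE, adjusted p = 0.752) that was -0.110 without attp40 replicate 1. The Or46a difference was 0.0649 ± 0.0425 (limma adjusted p = 0.910), and 0.0335 without attp40 replicate 3 and 0.0272 with the replicate block. Ir48c scored 0.233, 0.00459, 0.0334, 0 and 0.162 after LamB RNAi, against 0.319, 0.304 and 0 in attp40 hearts, a difference of -0.121 ± 0.0808 (limma adjusted p = 0.924). Without attp40 replicate 1, 2 or 3 in turn it was -0.0652, -0.0730 and -0.225. The groups overlapped in all 28 regions, where 3.16% of all regions did not overlap. No chemoreceptor gene had a peak in every library of one group and in none of the other, where 0.0867% of all genes had one only after LamB RNAi and 0.00722% only in attp40.

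**Figure D5:**
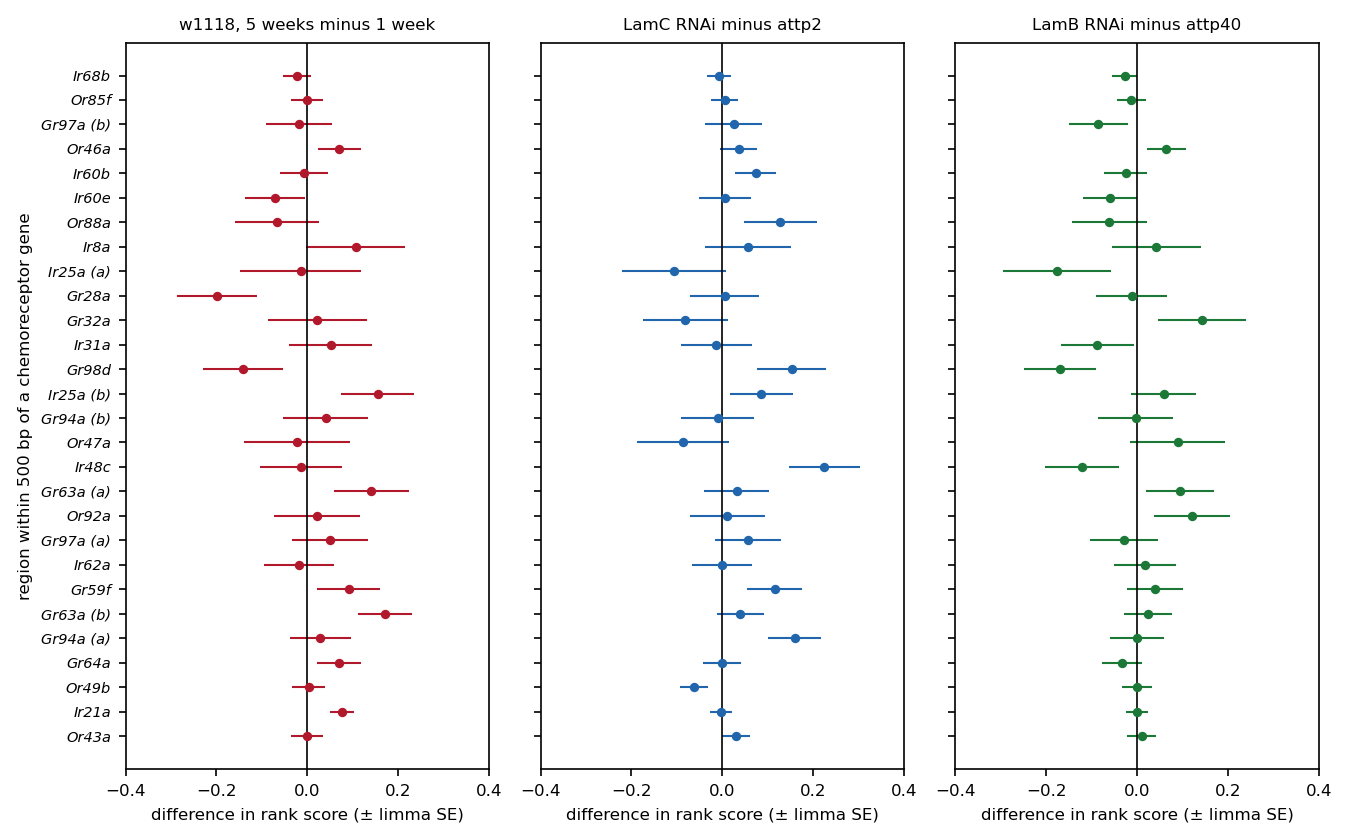
Difference in rank score (x axis, with limma SE as bars) of the 28 regions within 500 bp of a chemoreceptor gene (rows, from the highest mean score down) in w1118 hearts at 5 weeks against 1 week, after LamC RNAi against attp2 and after LamB RNAi against attp40. Letters tell regions of 1 gene apart in the order of their position; no region passed the adjusted threshold, and differences run from -0.199 to 0.225.

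The 3 comparisons share no library, and their differences were tested against each other in the same fit. Of the 28 regions, 0 differed between age and LamC RNAi (lowest limma adjusted p = 0.469), 0 between age and LamB RNAi (0.783) and 0 between LamC and LamB RNAi (0.443), where 0.396%, 0.152% and 0.0711% of all regions did, and 2, 1 and 2 of them had an unadjusted p under 0.05, where 7.81%, 6.37% and 6.81% of all regions did. At Ir48c the differences were 0.225 after LamC RNAi and -0.121 after LamB RNAi. At Gr98d they were 0.153 and -0.170. A p that misses the threshold does not show that the changes were equal. On simulated data with a score shift of 0.4, limma called 71.8% of shifted regions for age, 88.6% for LamC and 85.4% for LamB. Smaller shifts were not simulated. Only regions with a middle mean score were shifted, and shifted scores were not held between 0 and 1. Many of the 28 chemoreceptor regions had a lower or higher mean score, so these rates do not hold for them as a set.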

How the data were processed

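Bulk ATAC-seq of isolated fly hearts gave 22 deposited narrowPeak lists, 1 per library. The tools named are MACS2, Bowtie2, Picard and SAMtools, with dm6 as the genome build, per the submitters' processing notes. Versions, settings and any shift of reads were not given in the sources used here. In the deposited lists, column 7 is the authors' fold enrichment over local background, and columns 8 and 9 are −log10 p-values and −log10 q-values, the lowest −log10 q being 2.00. The lists hold no counts, so the depth per library is unknown. No 2 libraries shared more than 0.704% of their peak coordinates.

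Genes came from RefSeq's table for Release 6. A gene had a peak where a peak came within 500 bp of its span. For scores, the 8491 strongest peaks by column 8 were taken from every library, as many as the shortest list holds, and ranks were scaled between 0 and 1. Overlapping peaks were merged into 9850 regions with a peak in at least 3 libraries, and limma 3.58.1 (R 4.3.3) was fitted with a trend to 6 group means over all 22 libraries, with Benjamini-Hochberg adjustment and a threshold of 0.05. Other steps used Python 3.11.15, numpy 2.4.6 and pandas 2.3.3. On simulated data with known shifts, 5.41% to 6.52% of calls were false. There, deviations from the group means were shuffled over all libraries, separately for each region. The simulated data thus lack any scatter shared by the regions of a library and any difference in spread between groups. The rates of false and of recovered calls hold only for such data.

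Genes named in the text were the 25 with a peak in the most libraries, ties going to the higher mean score (the first 8 library by library), those with a peak in every library of one group and none of the other, any region past the threshold, the co-receptor genes and the 3 regions of lowest p in each comparison; other genes are named as members of the functional lists or were chosen after their values were seen. The chemoreceptor list and the other gene lists were chosen with earlier results of these data known. In the marker lists, bt and apolpp lie outside the 5 arms. Alternatives covered list length, ranking column, merging, distance, peaks at other genes, the libraries fitted, a replicate block and each library left out. A motif search in promoters was not run, and no promoter sequence was used here; 7 pseudogenes of the families were left out.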

Additional observations from a re-analysis of the deposited data

Results flagged for a closer look

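Ir68b, an ionotropic receptor gene beside yps, had a rank score of 0.886 in attp2 replicate 4, while the other 3 attp2 libraries lay between 0.539 and 0.584. That library stood apart from its group by more than the 95% limit of Dixon's test for 4 samples. Of 30 such checks, 1 stood out, and chance gives about 1 in 20. Each check took 1 measure in 1 group of 4 or more libraries (LamC RNAi, attp2 or LamB RNAi). The measures were the share of chemoreceptor genes with a peak, in both kinds of list, and the scores of the 8 genes given library by library. The checks reuse the same libraries, so they are not independent. The merged region at yps scored 0.865, 0.931, 0.909 and 0.886 in attp2 replicates 1 to 4, so replicate 4 lay within its group there. The score of the gene counts only peaks that come within 500 bp of Ir68b, and in replicate 4 the strongest peak of the region did so.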

How the results depend on the processing

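The number of chemoreceptor regions past the limma threshold was 0 under each alternative run for LamC and LamB RNAi, and for age under each but 1, since without w1118 5-week replicate 3 it was 1 (Gr63a); leaving out libraries gave 0 to 1 for age and 0 for both lamins. Whether same-numbered libraries share more than a number is not stated. Correlations of their deviations were 0.0237 to 0.147 for age, -0.274 to 0.0385 for LamC and 0.0841 to 0.213 for LamB. The same-numbered library of the other group correlated best for 2 of 3 in age, 1 of 4 in LamC and 2 of 3 in LamB, taken from either group. With the replicate block 0 chemoreceptor regions were called in each comparison, and 0, 1 and 0 regions in all. Over all regions the age calls numbered 130 of 9850, against 20 with the w1118 libraries alone and 61 to 171 with a library left out, of as many regions. Other settings changed the number of units tested as well. The calls were 349 of 12028 with all deposited peaks, 27 of 5307 with lists of 4245 peaks and 9 of 8543 genes with scores per gene. The mean share of chemoreceptor genes with a peak, 10.3%, was 1.83% where the peak had to overlap the gene, 15.4% within 1000 bp and 2.21% without peaks at ends of other genes. Under these settings the age difference of 1.68 points was 0.372, 0.372 and 0.745 points, and 2.61 points at a -log10 q of at least 10. Leaving out libraries gave 10.1% to 10.5% for the mean share, 1.30 to 2.14 points for age, -1.68 to 0.186 for LamC and 1.12 to 3.07 for LamB. Genes with a peak in any library numbered 10 with overlap and 9 without peaks at other genes' ends, alternatives chosen after seeing the data, against 30, and 29 to 30 with a library left out. Depth is unknown, so a missing peak shows only that none was listed, not that the DNA was closed in every cell.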
